A study of Homo sapiens with 12 samples.

Results

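The enzymes described here are the 3 that make serine from a glycolytic intermediate (PHGDH, PSAT1 and PSPH) and the 4 proteins of the mitochondrial glycine cleavage system (GLDC, AMT, GCSH and DLD). They were chosen by name, through the Ensembl identifier of each row of the count table, and all 7 were found among 60648 genes. The cells were HCT116, an established line from a human colon carcinoma, and their poly-A RNA was sequenced in 4 groups of 3. Wild-type cells (MTHFD2-WT) and MTHFD2 knock-out cells (MTHFD2-KO) were each taken at 2 harvests, an initial one, right after the knock-out was made, and a final one 2 months of culture later. The knock-out was made with CRISPR-Cas9, and all 6 of its libraries come from 1 isolated clone, so that the loss of MTHFD2 and other properties of that clone cannot be told apart. The labels state 3 biological replicates per condition without saying whether they were separate cultures. The p-values measure only the spread between these libraries.

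PHGDH oxidises 3-phosphoglycerate, PSAT1 transfers an amino group to the product from glutamate, and PSPH removes the phosphate to release serine. Serine hydroxymethyltransferases (SHMT1 in the cytosol, SHMT2 in mitochondria) then split serine into glycine and a folate-bound carbon unit, and MTHFD2 oxidises that unit in mitochondria. The glycine cleavage system takes a carbon unit from glycine instead: GLDC (P protein) removes its carboxyl group, AMT (T protein) hands the carbon to folate, GCSH (H protein) carries the intermediate on a lipoate arm, and DLD (L protein) reoxidises that arm. DLD is also a subunit of the pyruvate, 2-oxoglutarate and branched-chain 2-oxoacid dehydrogenase complexes. PHGDH and PSAT1 are known targets of ATF4, the transcription factor of the amino acid stress response.

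In the knock-out, PHGDH, PSAT1 and GLDC transcripts fell at both harvests, and PSPH, AMT, GCSH and DLD did not pass the test at either. PSAT1 in the knock-out was at 47.0% of the wild-type level at the initial harvest and 58.2% at the final harvest, PHGDH at 50.7% and 57.4%, and GLDC at 64.6% and 72.3%. Thus the first 2 enzymes of serine synthesis and the decarboxylase of glycine cleavage were lower, while the last enzyme of serine synthesis lay nearer to its wild-type level. A gene was called when edgeR's quasi-likelihood test gave it a Benjamini-Hochberg adjusted p below 0.05 over the 18289 genes kept by a filter on low counts, and all 7 enzymes passed it. The count was 3 of 7 at each harvest, all lower, and the share of all tested genes called was 19.9% initially and 18.5% finally (11.3% and 10.2% lower).

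The sequences in front of the 3 genes that fell are shown because they are where shared regulatory motifs would be looked for. RefSeq promoter windows on GRCh38.p14 reach from 250 bases before a gene's start to 50 bases after it, and they matched 6 of the 7 enzymes, all but PSPH. The 250 bases before the start are printed 5′ to 3′ on the gene's strand, with NF-Y boxes (CCAAT, or ATTGG on the other strand) in capitals: PHGDH at chr1:119711684-119711933 (plus strand), PSAT1 at chr9:78296875-78297124 (plus strand) and GLDC at chr9:6645730-6645979 (minus strand).
PHGDH: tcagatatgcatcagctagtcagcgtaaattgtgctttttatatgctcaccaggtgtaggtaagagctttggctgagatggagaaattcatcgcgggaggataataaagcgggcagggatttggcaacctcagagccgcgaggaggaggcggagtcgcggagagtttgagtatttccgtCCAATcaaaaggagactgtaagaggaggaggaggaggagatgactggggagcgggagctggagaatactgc
PSAT1: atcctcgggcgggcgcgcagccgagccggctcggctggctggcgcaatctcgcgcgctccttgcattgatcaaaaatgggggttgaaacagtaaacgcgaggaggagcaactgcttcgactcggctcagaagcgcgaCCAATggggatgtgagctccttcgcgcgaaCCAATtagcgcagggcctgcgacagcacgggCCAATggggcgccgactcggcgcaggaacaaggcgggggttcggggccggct
GLDC: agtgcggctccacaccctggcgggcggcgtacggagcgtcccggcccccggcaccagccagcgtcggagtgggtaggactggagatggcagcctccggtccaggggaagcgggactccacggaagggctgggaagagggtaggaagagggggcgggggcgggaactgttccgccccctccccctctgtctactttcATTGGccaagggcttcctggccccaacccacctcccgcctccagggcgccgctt
The PSAT1 window held 3 NF-Y boxes, which begin 113, 83 and 52 bases before the start, and PHGDH and GLDC held 1 each, at 71 and 54 bases. Of the 35116 promoter windows of this length, 34.6% held at least 1 such box on either strand and 3.26% held at least 3. AMT held 1 box and GCSH 2, and the 2 windows of DLD held 1 and 2. The core of the C/EBP-ATF response element (TGATGNAA, N being any base, both strands), which ATF4 is known to bind, and the E-box (CACGTG) had no match in any of these windows, against 3.62% and 7.26% of all windows. With no match, none overlapped an NF-Y box, and no match says only that these letters are not in these windows. A match describes the letters and is no evidence of binding.

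The positions of the genes bear on how their reads could be counted. On GRCh38, PHGDH (ENSG00000092621.13) spans chromosome 1 from 119648411 to 119744218 on the plus strand, PSAT1 (ENSG00000135069.14) chromosome 9 from 78297125 to 78330093 on the plus strand, and PSPH (ENSG00000146733.14) chromosome 7 from 56011051 to 56051604 on the minus strand. None of these 3 overlaps another gene of the table. The deposited PHGDH model begins 63523 bases before the RefSeq start used for the window above, whereas those of PSAT1 and GLDC begin at it. GLDC (ENSG00000178445.10) lies on chromosome 9 from 6532467 to 6645729 on the minus strand, and the 3 genes on its other strand share no exonic base with it.

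AMT, GCSH and DLD share exonic bases with other genes. AMT (ENSG00000145020.16, chromosome 3, 49416778 to 49422685, minus strand) shares 3555 of its 5675 exonic bases with an unnamed gene and 353 with NICN1, both on its strand. The unnamed gene had 0 to 5 counts per library and NICN1 0 to 1. GCSH (ENSG00000140905.11, chromosome 16, 81081945 to 81096395, minus strand) shares 442 and 430 of its 3640 exonic bases with 2 unnamed genes on its strand, which had 36 to 69 and 8 to 27 counts per library. DLD (ENSG00000091140.14, chromosome 7, 107891162 to 107931730, plus strand) shares 300 of 5102 bases with the laminin gene LAMB1 on the other strand. Whether the counting used strand or reads that fit 2 genes is not given in the sources used here, so the levels of these 3 genes are uncertain in that respect.

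The libraries were alike in depth. Totals ran from 38597809 to 40017561 counts, and TMM factors, which scale libraries to one another, from 0.927 to 1.03. Levels are given in CPM, counts relative to the library total and scaled by TMM, except for the summed marker levels below. MTHFD2 itself was at 413 ± 41.2 CPM in wild-type cells initially and 355 ± 32.4 CPM finally (SD, n = 3). In knock-out cells it was at 137 ± 9.1 and 137 ± 16.7 CPM (SD, n = 3). EPCAM, CDH1, KRT8, KRT18 and KRT19, which mark epithelial cells, had at least 4191 counts in every library, and VIL1, of the intestinal brush border, had 1 to 12. The summed level of these 6 was 2699 to 3277 CPM in the wild type and 2235 to 2686 CPM in the knock-out, without overlap, and CDH1 had 7595 to 11522 counts in the former and 4191 to 6960 in the latter. Of 15 markers of fibroblasts, white blood cells, endothelium, liver and glia, 6 never passed 3 counts (COL1A2, LUM, DCN, PTPRC, CD3E and CDH5); the other fibroblast collagens were present, and the summed fibroblast level was 57.3 to 72.3 CPM in the wild type and 37.0 to 58.9 CPM in the knock-out. The part of either marker list in the results was not tested. In bulk RNA, a lower share of cells with a transcript and less transcript in each cell cannot be told apart.

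PHGDH, which commits 3-phosphoglycerate to serine, had 404, 437 and 440 CPM in the initial wild-type libraries and 344, 331 and 323 CPM in the final ones. In knock-out cells the initial libraries held 205, 228 and 217 CPM, and final ones 190, 171 and 210 CPM. Every knock-out library lay under every wild-type library, and the final wild type lay between the initial wild type and the knock-out without overlapping either. The means were 427 ± 19.7, 332 ± 10.6, 217 ± 11.9 and 191 ± 19.5 CPM (SD, n = 3, in the same order of groups). The knock-out differed from the wild type by -0.98 on the log2 scale at the initial harvest (SE 0.0876, edgeR adjusted p 6.25e-07) and by -0.80 at the final harvest (SE 0.0874, edgeR adjusted p 5.22e-06). Of all genes tested, 3.44% had a lower log2 fold change than PHGDH at the initial harvest and 4.36% at the final harvest.

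PSAT1, the aminotransferase of the pathway, had 347, 390 and 355 CPM in the initial wild type and 284, 300 and 314 CPM in the final wild type. In the knock-out it had 155, 179 and 179 CPM initially and 190, 156 and 178 CPM at the end. The 2 knock-out groups overlapped each other and stayed below every wild-type library. The means were 364 ± 22.8, 300 ± 15.2, 171 ± 13.4 and 174 ± 17.4 CPM (SD, n = 3). The log2 fold change of the knock-out was -1.09 at the initial harvest (SE 0.0933, edgeR adjusted p 4.09e-07) and -0.78 at the final harvest (SE 0.0929, edgeR adjusted p 1.41e-05).

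PSPH, the phosphatase that releases serine, had 42.8, 56.7 and 46.2 CPM in the initial wild type and 41.4, 48.7 and 51.2 CPM in the final wild type. The knock-out libraries had 38.5, 39.97 and 44.8 CPM initially and 43.4, 37.4 and 43.6 CPM finally. The groups overlapped at both harvests. The difference was -0.24 (95% interval -0.48 to -0.00, edgeR adjusted p 0.153) initially and -0.18 (-0.42 to 0.06, edgeR adjusted p 0.303) finally, and a fall as large as that of PHGDH or PSAT1 lies outside both intervals. Averaged over both harvests it was -0.21 (edgeR adjusted p 0.0551), just short of the threshold. It passed without the filter on low counts (-0.22, edgeR adjusted p 0.0234) and without the initial wild-type replicate 1 (-0.25), the final wild-type replicate 1 (-0.26) or the initial knock-out replicate 3 (-0.25), with edgeR adjusted p from 0.0172 to 0.0429. PSPHP1, a pseudogene of PSPH on the same chromosome, had 84 to 148 counts per library, at most 9.69% of the PSPH count, and reads of the 2 may not be separable.

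GLDC, which decarboxylates glycine, had 8.25, 7.96 and 9.66 CPM in the initial wild type and 9.63, 8.91 and 8.46 CPM in the final wild type. It had 5.67, 5.81 and 5.21 CPM in the initial knock-out and 6.29, 5.99 and 7.23 CPM in the final knock-out. All 6 knock-out libraries were below all 6 wild-type libraries, and within the knock-out the final libraries were above the initial ones. GLDC differed by -0.63 on the log2 scale at the initial harvest (SE 0.115, edgeR adjusted p 0.000887) and -0.47 at the final harvest (SE 0.114, edgeR adjusted p 0.00789). These values rest on 204 to 386 counts per library.

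AMT, the aminomethyltransferase, was close to the limit of detection, with 7 to 19 counts per library. Wild-type cells had a mean of 0.429 ± 0.0418 CPM initially and 0.308 ± 0.0635 CPM finally, whereas knock-out cells had 0.387 ± 0.081 CPM initially and 0.295 ± 0.103 CPM finally (SD, n = 3). The genotypes overlapped at both harvests, and the intervals of the log2 difference, -0.78 to 0.49 and -0.77 to 0.65, are wide enough to hold the change seen in GLDC. At these counts a difference of that size in AMT was not detectable. Whether reads shared with its overlapping genes went uncounted was not tested.

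GCSH, the lipoate-bearing carrier protein, had 6.28, 2.89 and 3.73 CPM in the initial wild type, and 3.91, 3.75 and 3.72 CPM in the final one. Knock-out cells had 3.58, 3.98 and 3.496 CPM initially and 4.98, 5.00 and 3.19 CPM finally. The first initial wild-type library stood above the other 11, and the genotypes overlapped at both harvests. The log2 difference was -0.22 (-0.70 to 0.26) at the initial harvest and 0.21 (-0.27 to 0.69) at the final harvest (edgeR adjusted p 0.55 and 0.598). Without that first library the initial difference was 0.16, so its direction rests on 1 library. The 6 annotated GCSH pseudogenes had at most 6 counts in a library.

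DLD, the dihydrolipoamide dehydrogenase shared by several mitochondrial complexes, had 121, 131 and 128 CPM in the initial wild type and 120, 132 and 143 CPM in the final wild type. In the knock-out it had 104, 115 and 129 CPM and 136, 117 and 126 CPM. The groups overlapped at both harvests. The log2 difference was -0.12 (-0.32 to 0.07, edgeR adjusted p 0.39) and -0.06 (-0.26 to 0.13, edgeR adjusted p 0.711), intervals that leave out the falls measured for PHGDH, PSAT1 and GLDC. LAMB1, whose exons overlap those of DLD on the other strand, had 6842 to 12175 counts in the wild type and 2340 to 3230 in the knock-out; its part in the DLD count was not tested.

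**Figure D1:**
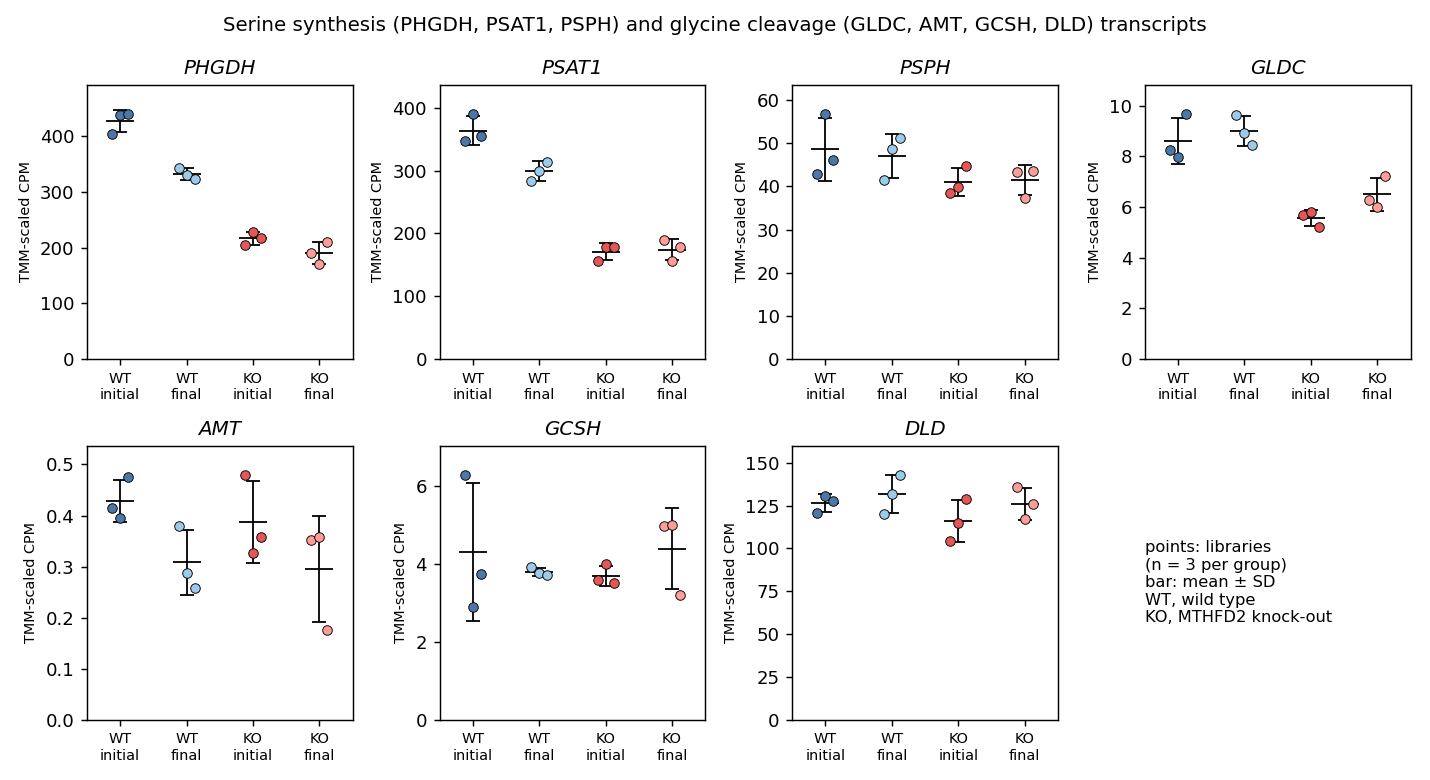
Level of each enzyme in TMM-scaled CPM (vertical axis, from 0) in the 12 libraries, with 1 point per library and the mean ± SD of each group (horizontal axis). For PHGDH, PSAT1 and GLDC all 6 knock-out points lie below all 6 wild-type points, and for the other 4 enzymes the genotypes overlap.

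The ranges of the genotypes did not overlap for PHGDH, PSAT1 and GLDC at either harvest. Over all tested genes, such a gap was found in 35.5% initially and 33.1% finally (18.4% and 17.2% with the knock-out lower). With all 6 libraries of each genotype pooled, the same 3 of 7 had no overlap, beside 12.8% of all genes (7.29% lower in the knock-out). Averaged over both harvests, the log2 fold changes were -0.89 for PHGDH (edgeR adjusted p 1.24e-08), -0.94 for PSAT1 (edgeR adjusted p 1.52e-08) and -0.55 for GLDC (edgeR adjusted p 6.59e-05), and 3 of 7 passed, where 30.1% of all genes did (16.1% lower). The initial and final comparisons share no library, and the average is made of both.

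Whether one enzyme responded more than another was asked with the ratio of 2 transcripts within each library, which does not depend on scaling between libraries. The ratio is the log2 of counts per kilobase of exon, with 0.5 added to each count, and its difference was tested by exact permutation, two-sided, swapping the genotype of libraries inside a harvest (400 relabellings, smallest possible p 0.005). All 21 pairs of the 7 enzymes were tested, and 11 passed after Benjamini-Hochberg adjustment over the 21. These 11 were each of PHGDH and PSAT1 against each of the other 5 enzymes, and GLDC against DLD. The share of pairs of other genes that would pass, or would not overlap, was not determined. The count is therefore not shown to be particular to these enzymes, and 30.1% of single genes were called between genotypes on average.

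The ratio of PHGDH to PSPH was 1.51, 1.21 and 1.52 in the initial wild type, 1.32, 1.03 and 0.92 in the final wild type, 0.67, 0.78 and 0.54 in the initial knock-out and 0.40, 0.46 and 0.54 in the final knock-out (log2). Its change in the knock-out was -0.69 on average, with no overlap between genotypes (exact permutation p 0.005, adjusted p 0.0131). The ratio of PSAT1 to PSPH moved in the same way, by -0.73 (exact permutation p 0.005, adjusted p 0.0131). Relative to PSPH, the first 2 enzymes of serine synthesis were therefore both lower. The ratio of PHGDH to PSAT1 changed by 0.04 on average (exact permutation p 0.435, adjusted p 0.531), with 0.11 initially and -0.02 finally.

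Within the glycine cleavage system, GLDC over DLD changed in the knock-out by -0.45 (exact permutation p 0.005, adjusted p 0.0131), from a mean of -4.67 ± 0.17 in the wild type to -5.13 ± 0.181 in the knock-out (SD, n = 6, without overlap). GLDC over AMT changed by -0.42 and GLDC over GCSH by -0.57, and neither passed (exact permutation, adjusted p 0.119 and 0.0975). GLDC fell less than PHGDH and PSAT1: PHGDH over GLDC changed by -0.34 (exact permutation p 0.005, adjusted p 0.0131) and PSAT1 over GLDC by -0.39 (exact permutation p 0.01, adjusted p 0.021), although the genotypes overlapped in both ratios. PSPH over DLD, the pair without a called gene and with the most counts, changed by -0.11 (exact permutation p 0.055, adjusted p 0.0888).

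**Figure D2:**
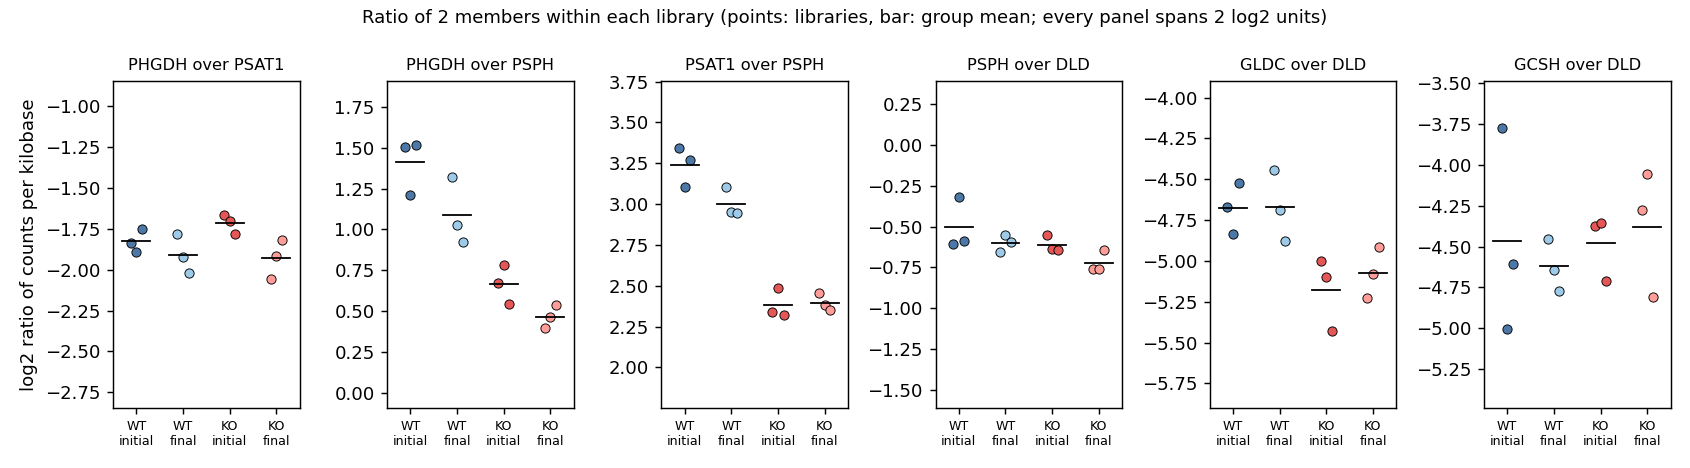
Ratio of 2 enzymes within each library (log2 of counts per kilobase, vertical axis, each panel spanning 2 log2 units) for 6 of the 21 pairs, by group (horizontal axis), with 1 point per library and the group mean as a bar. PHGDH over PSPH, PSAT1 over PSPH and GLDC over DLD are lower in every knock-out library, and PHGDH over PSAT1 overlaps between genotypes.

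Over 2 months of culture, 1 of the 7 enzymes changed in wild-type cells and 0 in knock-out cells, where 6.47% and 1.48% of all tested genes were called. PHGDH fell in the wild type by 0.36 on the log2 scale (SE 0.0868, edgeR adjusted p 0.0187), to 77.8% of its initial level. This call was lost when the fit used only the wild-type libraries (edgeR adjusted p 0.0698) and without the initial wild-type replicate 3 or the final wild-type replicate 2 or 3, with edgeR adjusted p from 0.0714 to 0.0993. The fold changed little in these fits, at -0.36 in the former and -0.36 to -0.34 in the others. PSAT1 in the wild type differed by -0.28 (-0.48 to -0.09, edgeR adjusted p 0.0874), with no overlap between the harvests, and passed with library totals (-0.37, edgeR adjusted p 0.0193) and in DESeq2 (-0.28, adjusted p 0.0404). Groups did not overlap for 3 of the 7 in the wild type (PHGDH, PSAT1 and AMT) and for 1 in the knock-out (GLDC), beside 22.2% and 23.2% of all genes.

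In the knock-out, PHGDH differed between harvests by -0.18 (-0.37 to 0.00), PSAT1 by 0.03 (-0.17 to 0.22) and GLDC by 0.23 (-0.02 to 0.47). The count at an unadjusted p under 0.05 there was also 0 in edgeR, the smallest being 0.0513 for PHGDH, and DESeq2 called 0. The interaction, a test of whether the effect of genotype differed from one harvest to the other, was called for 0 of the 7 in edgeR and in DESeq2 (1.28% of all genes in edgeR). It was 0.31 for PSAT1 (95% interval 0.03 to 0.59, unadjusted p 0.0308, adjusted p 0.338 in edgeR), the only enzyme with an unadjusted p under 0.05, and 0.18 for PHGDH (-0.08 to 0.44) and 0.16 for GLDC (-0.18 to 0.51). The time comparisons use the same libraries as the genotype comparisons.

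**Figure D3:**
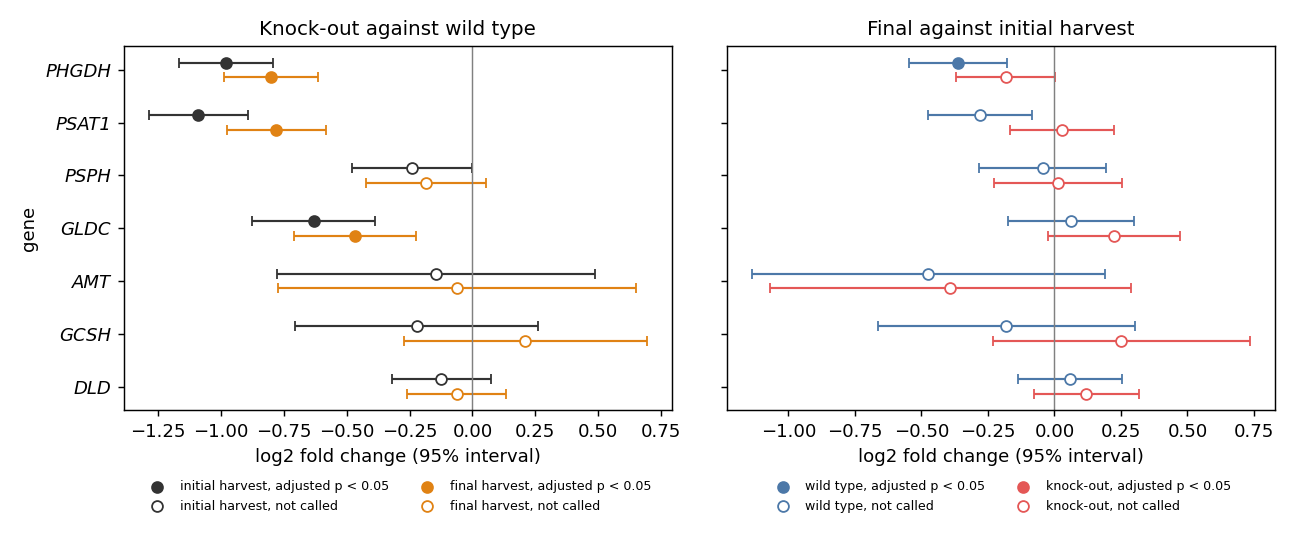
Log2 fold change with its 95% interval (horizontal axis) of each enzyme (vertical axis) for knock-out against wild type at both harvests, and for final against initial harvest in both genotypes. Filled points passed the test (PHGDH, PSAT1 and GLDC by genotype, PHGDH over time in the wild type), and the widest intervals belong to AMT and GCSH.

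Per kilobase of exon, the 7 transcripts were spread over a wide range of levels. In the initial wild type the order was PSAT1 (165 ± 10.4 CPM per kilobase, RPKM), PHGDH (46.5 ± 2.15), DLD (24.8 ± 1.03), PSPH (17.6 ± 2.63), GCSH (1.18 ± 0.484), GLDC (0.971 ± 0.102) and AMT (0.0755 ± 0.00736; SD, n = 3). GCSH and GLDC, neighbours in this order, overlapped, and the other neighbours did not. In the initial knock-out PSAT1 still led with 77.5 ± 6.07 RPKM, and PHGDH (23.6 ± 1.3) and DLD (22.7 ± 2.42) now overlapped. In the final knock-out DLD (24.7 ± 1.85) had a higher mean than PHGDH (20.8 ± 2.12). GLDC lay at 0.627 ± 0.0359 RPKM in the initial and 0.732 ± 0.0729 RPKM in the final knock-out, below GCSH at 1.01 ± 0.0717 and 1.21 ± 0.286 RPKM without overlap. The length used is the summed exon length in the table, 9187 bases for PHGDH and 2206 for PSAT1, which covers all annotated exons and so can lower the level of a gene with many of them.

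The transcripts most like each enzyme over the 12 libraries, among genes averaging 1 or more in log2 CPM, were found by Pearson correlation of log2 CPM, as a description. For PHGDH they were CARS1 (0.992) and BCAR3 (0.990), and for PSAT1 CALCOCO2 (0.992) and MTHFD2 (0.990). For GLDC they were KIF13B (0.977) and DOP1B (0.972), and for PSPH EIF2S2 (0.966) and BUD31 (0.947). DLD was most like SUCLG2 (0.952) and RPAP3 (0.933), GCSH like RFX7 (0.951) and ALG10B (0.943), and AMT like TMEM185A (0.877) and PARGP1 (0.855). Among the enzymes themselves, PHGDH and PSAT1 had a correlation of 0.972, PHGDH and GLDC 0.829, PSAT1 and GLDC 0.853, and PSPH and DLD 0.759. PSPH had 0.737 with PSAT1 and 0.653 with PHGDH. The points share the same 12 libraries in 4 groups, so these values largely follow the group means.

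Of the 9 folate enzymes that take over the carbon of serine, all tested, 3 were lower in the knock-out on average and 0 higher, where 16.1% of all genes were called lower. At each single harvest 2 were called, and between 0 and 3 without single libraries, while the count on average was 3 in each of those fits. SHMT2, which makes glycine from serine in mitochondria, was lower in the knock-out on average (log2 fold change -0.28, edgeR adjusted p 0.00586). Initially it went from 393 ± 34.2 to 328 ± 18.3 CPM and did not pass (-0.26, edgeR adjusted p 0.0709). At the final harvest it passed (-0.29, edgeR adjusted p 0.0478). MTHFD1L, the mitochondrial formate-releasing synthetase, was lower on average too (-0.26, edgeR adjusted p 0.00297), as was ALDH1L2, the mitochondrial formyl-folate dehydrogenase (-0.57, edgeR adjusted p 0.00144). SHMT1 had 13.5 ± 2.39 and 15.5 ± 1.46 CPM in the initial wild type and knock-out. It did not pass initially, finally or on average (edgeR adjusted p 0.285, 0.886 and 0.342). MTHFD1, MTHFD2L, MTFMT and ALDH1L1 did not pass, with average values of -0.10, -0.03, 0.00 and 0.34, the last from a gene below 0.3 CPM.

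Of 11 genes for carriers of serine or glycine 10 were tested, and 6 were lower and 0 higher on average (16.1% of all genes were lower), with a median log2 fold change of -0.30 (0.00 over all genes). SLC1A4, a serine and alanine carrier, fell from 58.2 ± 4.09 to 20.6 ± 0.762 CPM at the initial harvest (log2 fold change -1.50, edgeR adjusted p 4.2e-08) and was -0.91 at the final harvest (edgeR adjusted p 8.52e-06). It also fell over time in the wild type (-0.55, edgeR adjusted p 0.0032), from 58.2 ± 4.09 to 39.7 ± 5.4 CPM. SLC1A5, the main glutamine carrier, which also takes serine, was -0.59 on average (edgeR adjusted p 6.31e-05), and SLC6A9, a glycine transporter, -0.47 (edgeR adjusted p 3.46e-05). SLC6A9 was -0.69 initially (edgeR adjusted p 4.62e-05) and -0.25 finally, where it did not pass (edgeR adjusted p 0.0689). It too fell over time in the wild type (-0.48, edgeR adjusted p 0.00426). The other 3 called lower in the knock-out on average were SLC38A1, SLC38A2 and SFXN3, at -0.32, -0.55 and -0.27. SFXN1, a mitochondrial serine carrier, was at 0.09 and SLC25A38, a mitochondrial glycine carrier, at 0.09, and neither passed.

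Of 19 other genes that use or break down serine and glycine 15 were tested, and 1 was called on average, where 30.1% of all genes were: GSS of glutathione synthesis at -0.20 (edgeR adjusted p 0.00742). The median was -0.01, and the count was 2 without the initial or the final wild-type replicate 1. Among 14 genes of lipoate synthesis and its iron-sulfur supply, on which GCSH depends, 1 was lower and 1 higher on average, with a median of 0.07, again beside 30.1% of all genes called. Of these 2 calls, 1 was left without the initial wild-type replicate 1, the final wild-type replicate 3, the initial knock-out replicate 1 or 2, or the final knock-out replicate 1, and the count without other single libraries was at most 3. LIAS, the lipoyl synthase, fell from 22.1 ± 0.927 to 17.1 ± 0.983 CPM at the initial harvest (-0.37, edgeR adjusted p 0.00395) and was -0.20 at the final harvest, where it did not pass (edgeR adjusted p 0.107). IBA57 was higher by 0.18 on average (edgeR adjusted p 0.0304). Of 11 subunits of the complexes that share DLD 10 were tested and 3 called on average, a share close to the 30.1% of all genes, with a median of 0.00. DHTKD1 (-0.23, edgeR adjusted p 0.00229) and DLST (-0.17, edgeR adjusted p 0.0271) were lower, and BCKDHB (0.28, edgeR adjusted p 0.00796) was higher. The count was 2 to 5 without single libraries, with 5 without the initial wild-type replicate 2.

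The 7 genes of lower glycolysis around 3-phosphoglycerate gave 1 lower and 1 higher on average, a share close to the 30.1% of all genes called, with a median of -0.01. The count was 1 without any 1 of the initial wild-type replicates 2 and 3, the final wild-type replicates 2 and 3, and replicates 1 and 2 of either knock-out group. BPGM, the bisphosphoglycerate mutase, was -0.27 (edgeR adjusted p 0.0485), and ENO2, a second enolase, was 0.29 (edgeR adjusted p 0.000853). ENO2 fell over time in the wild type from 106 ± 8.18 to 67.1 ± 3.2 CPM (-0.66, edgeR adjusted p 0.000112) and was higher in the knock-out at the final harvest (0.50, edgeR adjusted p 0.000284).

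All 10 genes of a list of ATF4, its partners and its reporter genes were called lower in the knock-out on average, with a median of -0.70 (0.00 over all genes). Without single libraries the count on average was 9 to 10. The count was 9 initially and 6 finally, and 7 to 10 and 4 to 9 without single libraries. The shares of all genes called lower were 16.1% on average, 11.3% initially and 10.2% finally. A list of this kind was already known to be lower in these data, so this is no independent support. ATF4 itself was at -0.29 and NFE2L2 at -0.33 on average. CHAC1, which degrades glutathione, fell from 42.9 ± 10.2 to 6.37 ± 0.544 CPM at the initial harvest (-2.75, edgeR adjusted p 3.25e-09), and TRIB3, a pseudokinase, from 139 ± 30.7 to 43.4 ± 1.08 CPM (-1.68, edgeR adjusted p 8.92e-08). ASNS, the asparagine synthetase, fell from 17.5 ± 3.82 to 4.83 ± 0.574 CPM (-1.85, edgeR adjusted p 5.03e-07). The last 3 also fell over time in the wild type, by 0.87, 0.58 and 0.91 on the log2 scale (edgeR adjusted p 0.0012, 0.00819 and 0.00176), and 5 of the 10 genes did so, beside 3.42% of all genes that fell. The differences in ASNS, TRIB3 and CHAC1 at the initial harvest had larger values than those of PHGDH and PSAT1, a comparison that was not tested.

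**Figure D4:**
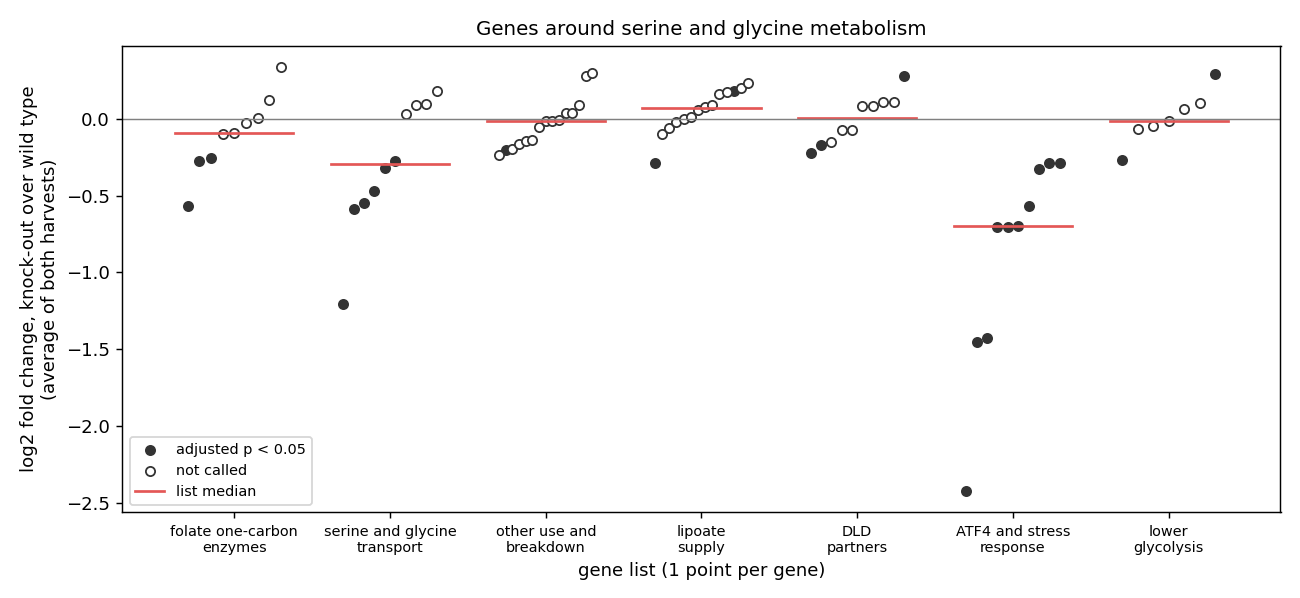
Log2 fold change of the knock-out over the wild type, averaged over both harvests (vertical axis), for the genes of 7 lists around serine and glycine metabolism (horizontal axis), with 1 point per gene, filled when it passed the test, and the list median as a bar. The 10 genes of the ATF4 list are all filled and below 0, while the lists for lipoate supply, DLD partners and lower glycolysis have medians between -0.01 and 0.07.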

How the data were processed

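The authors deposited raw counts per gene, 1 column per library, in the column layout of featureCounts, per the file headers. The submitters' processing notes name STAR, featureCounts, Subread and the build hg38; the annotation release, strandedness and handling of shared reads are not given in the sources used here. Symbols were found for 60506 of 60648 genes, and 37318 of 37318 identifiers with the same version in GENCODE 29 had the same coordinates there. The table breaks 1 gene over 5 lines, which were left out.

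Genes were filtered with filterByExpr (18289 kept), scaled with TMM and fitted with edgeR 4.0.16 (limma 3.58.1, R 4.3.3) as 1 robust quasi-likelihood model of 12 libraries with a mean per group, and p-values were adjusted by Benjamini-Hochberg over all genes. SE is the log2 fold change divided by the root of F. RPKM is TMM-scaled CPM per kilobase of the deposited exon length, the gene length given in the authors' table. The fit was tested on simulated data. Alternatives were DESeq2 1.42.0 (test and size factors), limma-voom, library totals, no filter, fewer libraries and a replicate block. Same-numbered libraries did not deviate together (correlations from -0.358 to 0.238), so numbers were not taken as pairs.

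Besides the 7 enzymes and MTHFD2, the genes named are all tested folate enzymes but 1, which is not reported here; in each other list, up to 3 called higher and 3 called lower with the smallest p on average; and the 2 most correlated genes per enzyme. SLC38A1, SLC38A2, SFXN1, SFXN3, SLC25A38, ATF4 and NFE2L2 were named after their values were seen. The members and lists were chosen with earlier results of these data known.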

Additional observations from a re-analysis of the deposited data

How the results depend on the processing

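The calls of PHGDH, PSAT1 and GLDC at both harvests and on average held under every alternative run, 19 at each harvest and 18 on average, where a fit of only the groups compared was not run because it is the main fit. PSPH on average passed without the filter (-0.22, adjusted p 0.0234) and without the initial or final wild-type replicate 1 or the initial knock-out replicate 3, so the count of enzymes was 3 to 4 over the fits that each left out 1 library. Over time in the wild type it was 2 with library totals and with DESeq2 (PSAT1 added), 0 with only the groups compared, and 0 to 1 without single libraries. Genotype values near 0 changed sign: GCSH on average with library totals (0.0145), limma-voom (0.0157) and the replicate block (0.00164), and without single libraries from -0.12 to 0.18, at the initial harvest -0.44 to 0.16; AMT from -0.22 to 0.20 at the final harvest and -0.19 to 0.0296 on average.

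Over time, with library totals, GLDC (-0.0282) and DLD (-0.0274) in the wild type and PSPH (-0.00263) in the knock-out changed sign. Without single libraries, the values over time ranged in the wild type from -0.13 to 0.0781 for PSPH, -0.41 to 0.20 for GCSH and -0.00371 to 0.11 for DLD, and in the knock-out from -0.0366 to 0.10 for PSAT1 and -0.0312 to 0.0826 for PSPH. The interaction ranged from -0.0686 to 0.14 for PSPH, -0.074 to 0.35 for AMT and -0.00849 to 0.14 for DLD.

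The counts of all changed genes, against which the enzymes are read, moved more. Over time in the wild type 1183 became 579 with only the groups compared, and 270 in the knock-out became 602 with DESeq2, 484 without the filter and 723 with only the groups compared; the interaction count of 235 became 472 with DESeq2 and 423 without the filter. Without single libraries they were 624 to 1403, 91 to 471 and 124 to 444 in that order, and 2407 to 4624 for the genotypes at the initial harvest. With library totals in place of TMM, higher and lower calls were 2006 and 1484 in place of 1533 and 1858 at the final harvest, 351 and 1281 in place of 558 and 625 over time in the wild type, and 221 and 60 in place of 148 and 87 in the interaction. The replicate block left the count of enzymes at 3 on average and changed no call of an enzyme. The number of differing pairs was 11, and 8 to 15 without single libraries. AMT is limited by its low counts, 7 to 19 per library, and shares exonic bases with other genes.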
